A study of Mus musculus with 39 samples.

Results

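Iron handling in microglia was followed through 10 genes for iron uptake, storage and export: Fth1 and Ftl1 (storage), Ncoa4 (ferritin turnover), Tfrc, Steap3, Slc11a1 and Slc11a2 (uptake and endosomal release), Slc40a1 (export), and Ireb2 and Aco1 (RNA-binding regulators). The genes were listed by name for their known role in iron handling, with earlier results of these data known. All 10 were found among the 46333 genes of the female count table and among the 54532 genes of the male count table, and all 10 passed the low-count filter in every comparison. Bulk RNA-seq was performed on CD11b+ cells pulled from the cerebrum with magnetic beads. WT (C57Bl6) mice were compared with 5XFAD mice, a line that expresses mutant human transgenes of familial Alzheimer's disease in neurons under the Thy1 promoter and deposits amyloid with age. Mice breathed room air (NX, 21% O2) or received chronic intermittent hypoxia (CIH), a model of sleep apnea. Per the labels, CIH alternated between 6.5% and 21% O2 in 90-s intervals for 8 hours of the sleep phase from 4 months of age. The methods of the study give another low oxygen level and another number of hours per day. Females were 10 months old and males 8 months old at the end, so age differs along with sex. Each of the 8 groups held 5 libraries, except female WT NX with 4. The methods also mention an outlier among the female NX samples without naming it, and whether it is among the libraries used here is not stated. The labels do not state that each library came from its own animal, while the methods call them independent samples, so p-values measure the spread between libraries whatever its source.

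Iron enters a cell mainly as transferrin bound to its receptor, is reduced and released in the endosome, and is then used, stored inside the ferritin shell or exported through ferroportin. Much of this system is set after transcription: when iron is scarce, the iron regulatory proteins IRP1 (encoded by Aco1) and IRP2 (encoded by Ireb2) bind a hairpin called the iron-responsive element (IRE). Binding in a 5′ UTR blocks translation, and binding in a 3′ UTR protects the mRNA from decay. Microglia hold iron in ferritin, and ferritin-rich microglia are known around amyloid plaques. RNA levels, the only measure here, do not report protein or iron.

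The IRE hairpins of the members are shown because they mark which transcripts carry the element through which the regulators act. A search for an unpaired C, 5 bases, a CAGUG loop closed by A, C or U, and 5 bases that pair back found a match in a UTR of 4 of the 10 members. It found one in 123 of 21877 protein-coding genes (0.562%, with 0.105% in a 5′ UTR and 0.457% in a 3′ UTR). Sites are 30 bases from GENCODE transcripts on GRCm38, 5′ to 3′, with the 6-base loop in capitals.
Fth1, 5′ UTR, chr19:9982731-9982760, plus strand: uuuccugcuucaaCAGUGCuugaacggaac
Ftl1, 5′ UTR, chr7:45459779-45459808, minus strand: ugucuugcuucaaCAGUGUuugaacggaac
Slc40a1, 5′ UTR, chr1:45925465-45925494, minus strand: ccaacuucagcuaCAGUGUuagcuaaguuu
Tfrc, 3′ UTR, chr16:32631218-32631247, plus strand: uaauuaucggaagCAGUGCcuuccauaauu
Tfrc, 3′ UTR, chr16:32631597-32631626, plus strand: acauuaucgggagCAGUGUcuuccauaaug
Tfrc, 3′ UTR, chr16:32631662-32631691, plus strand: ucuauaucggagaCAGUGAucuccauaugu
Tfrc, 3′ UTR, chr16:32631709-32631738, plus strand: uaauuaucgggaaCAGUGUuucccauaauu
Both ferritin chains and ferroportin carried the hairpin ahead of the coding sequence, and the transferrin receptor carried 4 matches behind it. The search takes only this strict form, so the lack of a match in the other members says only that these letters were not there.

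Library totals ran from 14731683 to 25906121 counts in females and from 13457293 to 23095627 in males. The summed level of 8 microglia markers was 20681 to 33488 CPM (a gene's counts scaled to the TMM-normalised library size) per library, and none of them was at 0. These markers were lower in 5XFAD: 4 of 8 were called lower in NX females, 5 in CIH females, 5 in NX males and 4 in CIH males, with 0, 1, 0 and 1 called higher. Their sums in WT and 5XFAD were 27371 to 30632 and 23637 to 25326 CPM in NX females, 27323 to 31417 and 22208 to 24046 CPM in CIH females, 29645 to 33488 and 20681 to 25005 CPM in NX males, and 25683 to 30249.5 and 21814 to 23496 CPM in CIH males. The part of this in the lower Slc40a1, Ncoa4 and Ireb2 of 5XFAD libraries was not tested. Some libraries stood apart from their group. In females, the library labelled 5XFAD NX 4 lay at −41.6 on the first principal component of the NX libraries, just beyond the WT range of −40.5 to −23.5, while the other 5XFAD NX libraries lay at 24.8 to 53.2. In males, 5XFAD NX 4 and 5 lay at 7.45 and 4.82 on the first component of all male libraries, against 52.1 to 57.2 for 5XFAD NX 1 to 3. Libraries also differed in how long genes compared with short ones. The median relative level of genes over 6000 bases minus that of genes under 1500 bases was −0.44, −0.31 and −0.40 (log2) in male 5XFAD NX 1 to 3 and 0.37 and 0.41 in 4 and 5. In females it was 0.31 in 5XFAD NX 4 against −0.13 to 0.07 in the other 5XFAD NX libraries and −0.09 to 0.20 in WT NX. Whole male groups differed as well. The measure was 0.20 to 0.37 in WT CIH, −0.18 to 0.09 in WT NX and −0.53 to 0.04 in 5XFAD CIH. In the male table Fth1 and Ftl1 are 866 and 1340 bases long and Slc40a1, Ncoa4 and Ireb2 9000 to 9479 bases. In the female table, where lengths follow from counts and FPKM, they are 1226 and 970 bases against 3293 to 4962 bases. So results that rest on these libraries, or that moved with gene length, are given with these values below.

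Compared per length, ferritin RNA stood far above the rest of the system. In the female table the median FPKM (fragments scaled to gene length and library total) over the libraries was 2020.0 for Ftl1 (996 to 2683) and 1375 for Fth1 (561 to 2275). The natural resistance-associated transporter Slc11a1, which moves iron out of phagosomes and lysosomes, followed with a median of 114 FPKM (94.8 to 162) and the exporter Slc40a1 with 63.1 FPKM (19.4 to 78.8). Ireb2 (23.7 FPKM), Ncoa4 (20.8 FPKM), Slc11a2 (16.1 FPKM) and Aco1 (10.5 FPKM) came next, and in this order neighbours overlapped from Slc40a1 to Slc11a2 while Aco1 lay below Slc11a2 in every library. The ranges of the 2 ferritins overlapped as well. Tfrc at a median of 3.85 FPKM and the endosomal ferrireductase Steap3 at 1.05 FPKM were lowest. In the male table Fth1 was the higher ferritin with a median of 1896 FPKM (839.8 to 6512) and Ftl1 followed with 546 FPKM (291 to 1544). The order below them was Slc11a1 (139 FPKM), Slc40a1 (14.8 FPKM), Aco1 (8.75 FPKM), Ireb2 (8.29 FPKM), Slc11a2 (7.79 FPKM), Ncoa4 (5.32 FPKM), Tfrc (2.3 FPKM) and Steap3 (0.548 FPKM). Here the ranges of the ferritins overlapped, and so did those of neighbours from Slc40a1 to Tfrc. The tables of the 2 sexes use different gene models and lengths, so their levels were not set against each other.

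**Figure D1:**
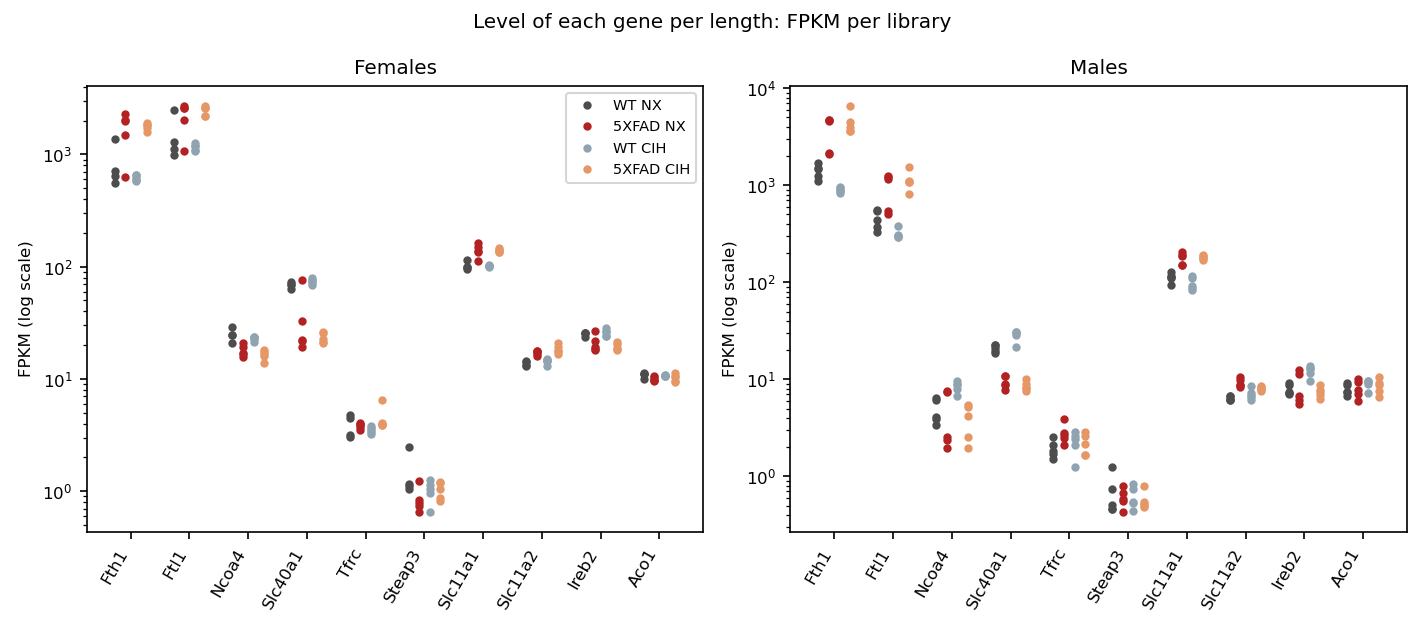
FPKM of the 10 members in each library, on a log axis, with the female and the male table apart. The ferritin genes Fth1 and Ftl1 lie above every other member in both tables, and Tfrc and Steap3 have the lowest medians.

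Genotype was compared within each sex and treatment, to ask how 5XFAD microglia differed from WT microglia under NX and under CIH. A gene was called at FDR < 0.05 (edgeR quasi-likelihood F test, Benjamini-Hochberg over all genes tested) and was a DEG where the absolute log2FC also exceeded 1. In WT NX vs 5XFAD NX females, 2 of the 10 members were higher in 5XFAD and 0 lower, with 0 DEGs, while 7.26% of 14513 genes were called higher, 6.61% lower, and 5.99% were DEGs. In WT CIH vs 5XFAD CIH females, 6 members were higher and 3 lower, of which 3 were DEGs, against 26.2%, 25.7% and 13% of 14911 genes. In WT NX vs 5XFAD NX males, 4 members were higher and 1 lower, of which 3 were DEGs, against 10.4%, 7.37% and 8.25% of 14834 genes. In WT CIH vs 5XFAD CIH males, 3 members were higher and 3 lower, of which 4 were DEGs, against 25.3%, 23.7% and 18.7% of 14793 genes. The median log2FC over the members was 0.10, 0.38, 0.31 and −0.03 in these comparisons, beside −0.02, −0.02, 0.02 and −0.06 over all genes tested. Under CIH these shares of all genes were high in both sexes, and the counts of members are to be read against them.

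Ferritin rose in 5XFAD microglia in 3 of the 4 genotype comparisons, all but that of NX females. Fth1 encodes the heavy chain, the ferroxidase subunit that loads iron into the shell, and lies at chr19:9982703-9985092 on the plus strand. In females under CIH, Fth1 stood at 692, 654, 686, 776 and 744 CPM in WT and at 2409.7, 1993, 2165, 2328 and 2598 CPM in 5XFAD. The groups were far apart and each was tight, with means of 710.4 ± 48.6 and 2299 ± 231 CPM (SD, n = 5 each). Fth1 was 3.27-fold higher in 5XFAD (log2FC 1.71 ± 0.08 SE, FDR 2.97e-09, edgeR). In males under CIH, WT libraries held 843, 779, 740.3, 759.7 and 811 CPM and 5XFAD libraries 3163, 3127, 3472, 3916 and 5784 CPM of Fth1. The lowest 5XFAD library was well above the highest WT library, and Fth1 was 4.97-fold higher (log2FC 2.31 ± 0.15 SE, FDR 3.62e-08, edgeR).

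Under NX the 5XFAD libraries spread more. In NX males, Fth1 was at 964, 1091, 1259.6, 1501 and 1331 CPM in WT and at 4192, 3993, 4211, 1791 and 1856 CPM in 5XFAD. The last 2 of these are the libraries that stood apart, and even they lay above every WT library. Fth1 was 2.61-fold higher (log2FC 1.38 ± 0.26 SE, FDR 0.00232, edgeR). In NX females, Fth1 was at 1604, 653, 814 and 749 CPM in WT and at 3195, 2852, 1879, 666 and 2777 CPM in 5XFAD. Here WT NX 1 was high for its group and 5XFAD NX 4 lay among the WT libraries, and the groups overlapped. The log2FC was 1.25 ± 0.44 SE and Fth1 was not called (FDR 0.0781, edgeR). Without these 2 libraries, an alternative added after the data were seen, 6 members were called rather than 2 and Fth1 was among them at log2FC 1.84 ± 0.18 SE (FDR 5.61e-05, edgeR). That leaves 3 WT and 4 5XFAD libraries and calls 6296 of 13962 genes.

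Ftl1, the light chain that supports the mineral core, lies at chr7:45457944-45459884 on the minus strand and moved with Fth1. In females under CIH it was at 979, 979.9, 1051, 1169 and 1071 CPM in WT and at 2686, 2209, 2194, 2610.1 and 2896 CPM in 5XFAD. The ranges did not overlap and Ftl1 rose 2.43-fold (log2FC 1.28 ± 0.09 SE, FDR 1.06e-07, edgeR). In males under CIH it was at 513, 414, 402, 392 and 398 CPM in WT and at 1449.7, 1081, 1457, 1483 and 2122 CPM in 5XFAD. Again no library crossed over, and Ftl1 rose 3.59-fold (log2FC 1.85 ± 0.15 SE, FDR 2.53e-07, edgeR). In NX males it was at 498, 591, 447, 746 and 740.1 CPM in WT and 1690.1, 1592, 1713, 727 and 678 CPM in 5XFAD. The rise was called at 2.12-fold (log2FC 1.08 ± 0.28 SE, FDR 0.016, edgeR), although 5XFAD NX 4 and 5 lay within the WT range. With the library number as a block in the fit, this call was lost. In NX females the log2FC of Ftl1 was 0.78 ± 0.38 SE and was not called (FDR 0.176, edgeR), with WT NX 1 at 2286 CPM against 918 to 1178 CPM in the other WT libraries and 5XFAD NX 4 at 899.6 CPM against 2029.6 to 2969.8 CPM. Without these 2 libraries it was 1.35 ± 0.16 SE (FDR 0.000146, edgeR).

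**Figure D2:**
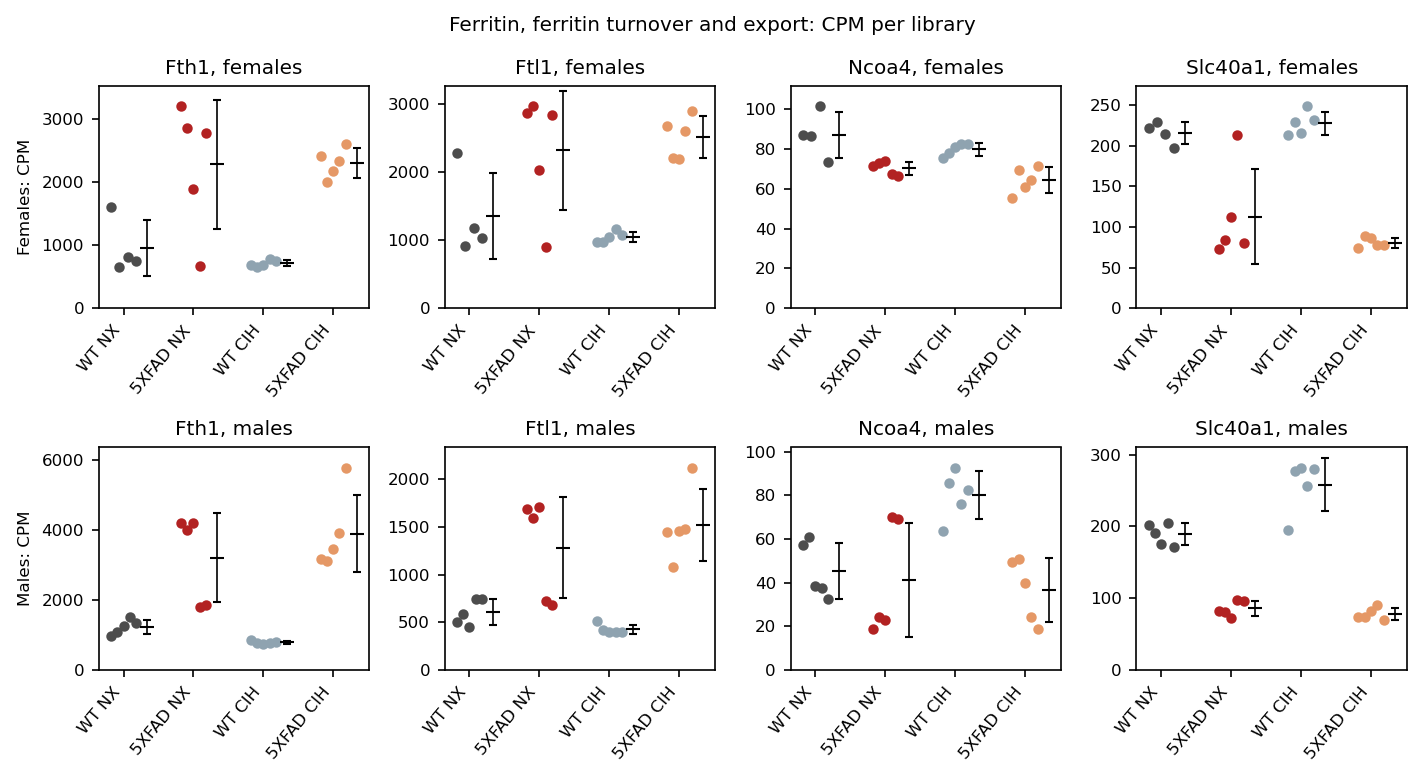
CPM per library of Fth1, Ftl1, Ncoa4 and Slc40a1 in the 4 groups of each sex, points being libraries and black bars the mean ± SD. Under CIH every 5XFAD library lies above every WT library for Fth1 and Ftl1 and below every WT library for Slc40a1, in both sexes.

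The 2 chains did not keep a fixed proportion. The level of Ftl1 per Fth1 (ratio of FPKM) was 1.79 ± 0.0382 in female WT NX (SD, n = 4) and 1.87 ± 0.0626 in WT CIH, and 1.36 ± 0.212 in 5XFAD NX and 1.38 ± 0.0575 in 5XFAD CIH (SD, n = 5 each). The ratio was thus lower in 5XFAD females under both treatments, with 5XFAD NX 4 at 1.71 as the exception nearest to WT. In males, on the scale of the gene lengths of that table, the ratio was 0.319 ± 0.0521 in WT NX and 0.348 ± 0.0284 in WT CIH against 0.256 ± 0.0112 in 5XFAD NX and 0.255 ± 0.0291 in 5XFAD CIH (SD, n = 5 each). The male NX groups overlapped, since WT NX 3 was at 0.229, below all 5XFAD NX libraries (0.236 to 0.263). These ratios are a description and were not tested. Reads of the ferritin genes can also fall on near-identical pseudogenes. Ftl1-ps1 was counted at 7.68 to 44.8 CPM per library in the male table and moved like Ftl1, with 7.68 to 11.4 CPM in WT CIH and 24.1 to 44.8 CPM in 5XFAD CIH, so the split of reads between them is uncertain.

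Ncoa4, the cargo receptor that hands ferritin to the autophagosome so that its iron can be released, fell in 5XFAD under CIH, where ferritin rose. It lies at chr14:32159865-32179855 on the plus strand. In females under CIH it was at 75.2, 78, 80.7, 82.7 and 82.2 CPM in WT and at 55.6, 69.5, 60.8, 64.3 and 71.4 CPM in 5XFAD. The decrease was small and without overlap (log2FC −0.30 ± 0.07 SE, FDR 0.00259, edgeR). In males under CIH it was at 63.6, 85.5, 92.7, 75.9 and 82.5 CPM in WT and at 49.5, 51, 40, 24.2 and 18.8 CPM in 5XFAD. Ncoa4 was 0.462 of the WT level there (log2FC −1.12 ± 0.23 SE, FDR 0.00126, edgeR). In the same order of these 5XFAD libraries, the length measure was −0.08, 0.04, −0.23, −0.29 and −0.53 (log2). In NX males it was at 57.2, 60.9, 38.6, 37.4 and 32.3 CPM in WT and at 18.9, 24.3, 22.8, 70.2 and 69.1 CPM in 5XFAD. Libraries 1 to 3 of that 5XFAD group were below all WT libraries and libraries 4 and 5 above all of them, so the log2FC of −0.14 averages opposite departures (FDR 0.861, edgeR). The sides are those of the length measure given above for the same libraries, and its part in the Ncoa4 values was not tested. In NX females the log2FC of Ncoa4 was −0.30 ± 0.09 SE (FDR 0.0544, edgeR).

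Slc40a1 encodes ferroportin, the only known exporter of iron from cells, and lies at chr1:45908068-45926523 on the minus strand. It fell in 5XFAD microglia in the same 3 comparisons. In females under CIH it was at 213, 229, 216, 249 and 232 CPM in WT and at 74.1, 88.6, 86.3, 77.6 and 77.6 CPM in 5XFAD. The 5XFAD level was 0.359 of WT with both groups tight (log2FC −1.48 ± 0.06 SE, FDR 1.47e-09, edgeR). In males under CIH it was at 195, 277, 282, 257 and 280.2 CPM in WT and at 74, 74, 82, 91.1 and 69.4 CPM in 5XFAD. The 5XFAD level was 0.305 of WT (log2FC −1.71 ± 0.12 SE, FDR 4.47e-08, edgeR).

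In NX males Slc40a1 was at 202, 191, 176, 205 and 172 CPM in WT and at 82.4, 80.1, 71.8, 96.8 and 96.5 CPM in 5XFAD. All 5 of the 5XFAD libraries were low here, also 4 and 5, which stood apart for ferritin and Ncoa4 (log2FC −1.14 ± 0.12 SE, FDR 2.23e-05, edgeR). In NX females Slc40a1 was at 222, 229, 214 and 197 CPM in WT and at 73.2, 84.7, 113, 214 and 80.7 CPM in 5XFAD. Only 5XFAD NX 4 reached the WT range, and the log2FC of −0.92 ± 0.30 SE was not called (FDR 0.0636, edgeR). Without that library and WT NX 1 the log2FC was −1.29 ± 0.14 SE (FDR 9.08e-05, edgeR).

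Border macrophages of the meninges and vessels also carry CD11b, and their markers moved in the same direction as Slc40a1. Of the 7 markers, 7 were lower in 5XFAD in NX females, 7 in CIH females, 6 in NX males and 4 in CIH males, and none was at 0 in any group. Their summed level was 181 to 335 CPM in female WT NX and 86.1 to 159 CPM in 5XFAD NX, and 144 to 307 CPM and 65.7 to 128 CPM under CIH. In males it was 229 to 321 CPM in WT NX and 95.9 to 139 CPM in 5XFAD NX, and 147 to 321 CPM and 96.2 to 188 CPM under CIH. Fewer cells of a type and less RNA per cell cannot be told apart in bulk samples, for these markers as for every gene here, and their part in the Slc40a1 result was not tested.

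Ferritin RNA per Slc40a1 RNA had a higher median in 5XFAD than in WT in each genotype comparison. This ratio is a description and was not tested. It sets the short ferritin genes over the longer Slc40a1, and the part of gene length in it was not tested either. The summed FPKM of both ferritins per FPKM of Slc40a1 had a median of 28.4 in female WT NX and 24.3 in WT CIH, against 209.6 in 5XFAD NX and 195 in 5XFAD CIH. The female 5XFAD NX libraries reached from 22.7, in library 4, to 249.9. They overlapped female WT NX at 21.3 to 54.4, and in that comparison neither the ferritins nor Slc40a1 were called. In the male table the medians were 91.4 in WT NX and 39.6 in WT CIH against 651 and 559.7 in 5XFAD NX and CIH. Male 5XFAD NX 4 and 5 were at 243 and 247, against 651 to 769 in 1 to 3, and still above all WT libraries (36.9 to 109.6).

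Of the 4 uptake genes, 2 were called in NX females, 3 in CIH females, 2 in NX males and 1 in CIH males, all higher in 5XFAD and none a DEG, beside 7.26%, 26.2%, 10.4% and 25.3% of all genes called higher. Tfrc, the transferrin receptor at chr16:32608920-32632794 on the plus strand, was at 14.9, 15, 14, 16.6 and 16.7 CPM in female WT CIH and at 19.6, 19.3, 19.3, 31.9 and 20.2 CPM in 5XFAD CIH. All 5XFAD libraries were above all WT libraries, one of them well above (log2FC 0.53 ± 0.14 SE, FDR 0.00544, edgeR). By limma the difference was 0.25 on log2(FPKM + 1) (FDR 0.0797) and 0.31 on log2(FPKM + 0.1), and neither was called. In NX males Tfrc was at 12.9, 10.7, 9.37, 11.5 and 16.1 CPM in WT and 13.3, 15.7, 16.9, 24 and 17.3 CPM in 5XFAD, and it was not called (log2FC 0.53, FDR 0.0833, edgeR). It was not called in NX females (log2FC 0.15) or CIH males (log2FC −0.017) either.

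Slc11a1, which resides in phagosomal and lysosomal membranes of macrophages and lies at chr1:74375195-74386062 on the plus strand, was the one uptake gene that rose in all 4 genotype comparisons. In females it was at 316, 334, 326 and 380.0 CPM in WT NX and 651, 602, 498, 337 and 539 CPM in 5XFAD NX, with library 4 again inside the WT range (log2FC 0.63 ± 0.17 SE, FDR 0.0395, edgeR). Under CIH the female groups were 328 to 338 CPM and 488 to 568 CPM (log2FC 0.65 ± 0.06 SE, FDR 5.82e-07, edgeR). In males the NX groups were at 353 to 473 CPM and 557 to 777 CPM (log2FC 0.67 ± 0.13 SE, FDR 0.00283, edgeR). Under CIH the male groups were at 312 to 432 CPM and 634 to 709.9 CPM (log2FC 0.89 ± 0.10 SE, FDR 8.96e-06, edgeR). The groups were apart in 3 of the 4 comparisons, and the change was between 1.55-fold and 1.85-fold. In NX females the call held in 1 of the 9 fits that left out 1 library, that without 5XFAD NX 4, with an FDR of up to 0.103 in the others (edgeR).

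Slc11a2, the divalent metal transporter DMT1 that carries iron out of the endosome, lies at chr15:100387898-100425072 on the minus strand. It was at 43.4, 48.5, 43.6 and 46.8 CPM in female WT NX and 64.4, 71.1, 64.1, 50.2 and 69.4 CPM in 5XFAD NX. All 5XFAD libraries, library 4 included, were above all WT libraries (log2FC 0.49 ± 0.10 SE, FDR 0.0207, edgeR), and the call held in 4 of the 9 fits that left out 1 library. It rose likewise in CIH females (log2FC 0.55 ± 0.07 SE, FDR 1.26e-05, edgeR) and in NX males (log2FC 0.54 ± 0.10 SE, FDR 0.00262, edgeR). The call in NX males was lost when libraries were scaled by total counts (log2FC 0.36, FDR 0.0629, edgeR). In CIH males it was at 42.5, 54.7, 46.8, 44.3 and 39.1 CPM in WT and 51.4, 51, 53.1, 48.9 and 55.6 CPM in 5XFAD, which overlap (log2FC 0.20, FDR 0.101, edgeR), and scaling by total counts gave −0.17. Steap3, which reduces iron in the endosome and lies at chr1:120190757-120272705 on the minus strand, was called in no comparison, with a log2FC by genotype of −0.64 to 0.22. Its levels were 1.82 to 4.83 CPM in all but 2 libraries, female WT NX 1 at 6.91 CPM and male WT NX 4 at 7.25 CPM. The log2FC of −0.64, in NX females, was −0.25 without WT NX 1.

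**Figure D3:**
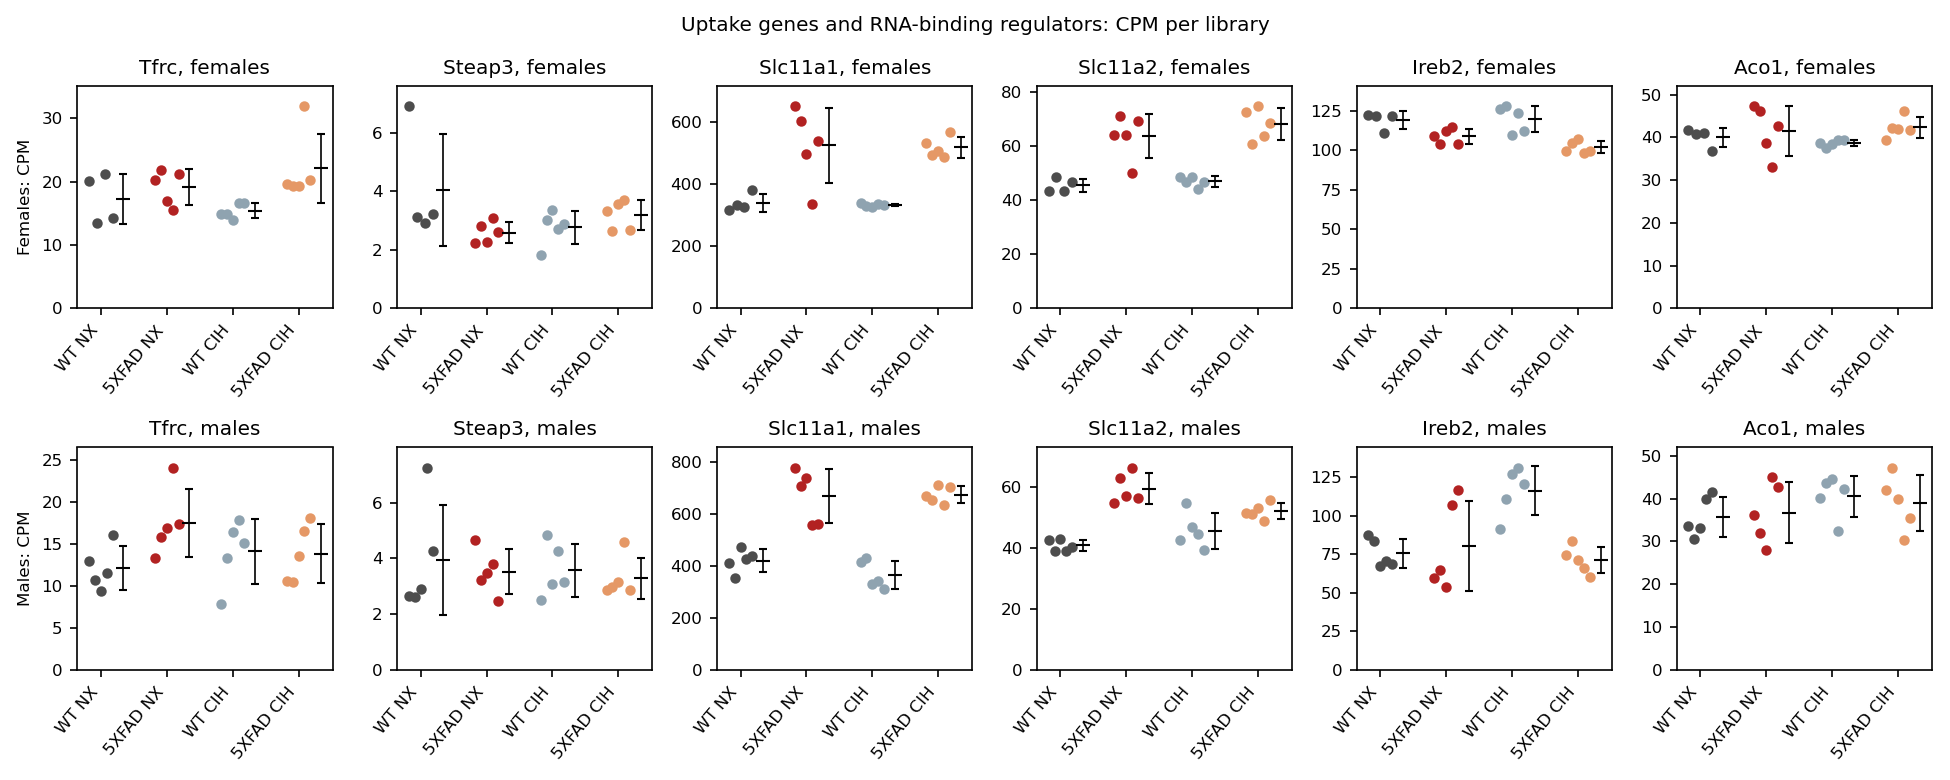
CPM per library of Tfrc, Steap3, Slc11a1, Slc11a2, Ireb2 and Aco1 in the 4 groups of each sex, points being libraries and black bars the mean ± SD. Slc11a1 lies at 312 to 473 CPM in all WT libraries and at 337 to 777 CPM in 5XFAD libraries, while Aco1 stays between 27.9 and 47.3 CPM.

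Of the regulators, Ireb2 (IRP2, which is degraded when iron is plentiful, at chr9:54863789-54912530 on the plus strand) was lower in 5XFAD under CIH. In females the CIH levels were 126, 128, 109.6, 124 and 112 CPM in WT and 99.6, 104, 107, 98.2 and 99.6 CPM in 5XFAD. The groups did not overlap and the difference was small (log2FC −0.22 ± 0.06 SE, FDR 0.00583, edgeR). In males they were 91.3, 111, 127, 131 and 121 CPM in WT and 74.9, 83.4, 71.5, 66.3 and 60.5 CPM in 5XFAD, a level 0.618 of WT (log2FC −0.70 ± 0.12 SE, FDR 0.000219, edgeR). In NX males Ireb2 split as Ncoa4 did, with 67.4 to 87.4 CPM in WT, 53.9 to 64.6 CPM in 5XFAD 1 to 3, and 107 and 117 CPM in 5XFAD 4 and 5 (log2FC 0.09, FDR 0.832, edgeR). In NX females its log2FC was −0.13 (FDR 0.217, edgeR). Aco1, a cytosolic aconitase that binds IREs once it has lost its iron-sulfur cluster, lies at chr4:40143081-40198338 on the plus strand. By genotype its log2FC was 0.056 in NX females, 0.043 in NX males and −0.049 in CIH males, and it was called in CIH females, at 37.5 to 39.5 CPM in WT and 39.5 to 46.1 CPM in 5XFAD (log2FC 0.14 ± 0.05 SE, FDR 0.0415, edgeR). That direction turned to −0.048 when libraries were scaled by total counts rather than by TMM, and the call held in 2 of 9 alternatives and in 1 of 10 fits that left out 1 library.

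**Figure D4:**
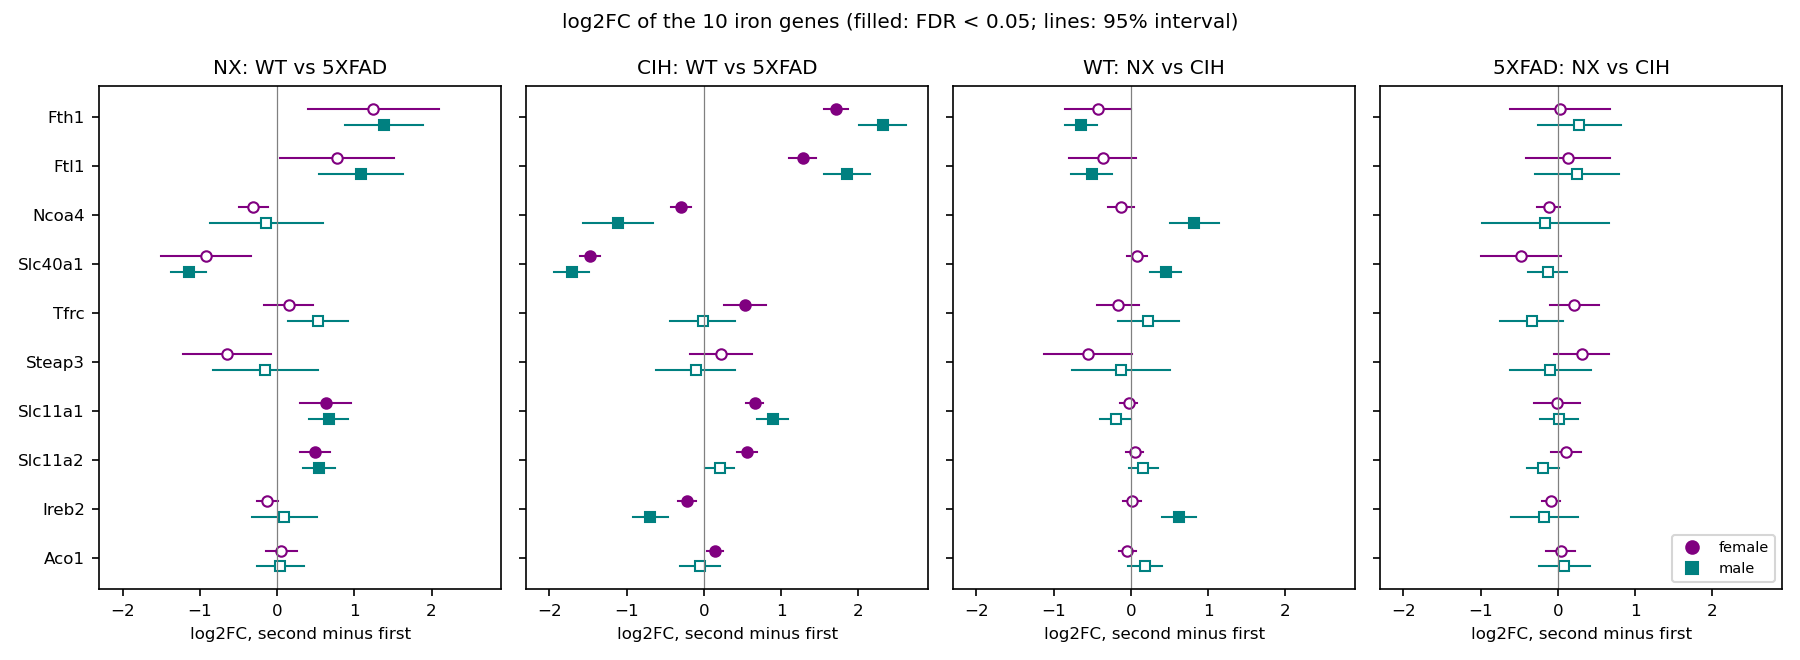
log2FC of the 10 members with approximate 95% intervals in 4 comparisons of 2 groups, circles for females, squares for males, filled at FDR < 0.05. The intervals use a normal approximation, which is narrow for so few libraries. They are not adjusted for the number of genes, so an interval can clear 0 without a call. Fth1 and Ftl1 lie to the right and Slc40a1 to the left of 0 in each genotype comparison, with their widest intervals in NX females.

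CIH was then compared with NX within each genotype, to ask whether the hypoxia itself moved the iron genes. In WT males 3 members were higher under CIH and 2 lower, with 0 DEGs, while 13.6% of 14983 genes were called higher, 15% lower and 2.51% were DEGs. The median log2FC was 0.17 over the members and −0.01 over all genes tested. Ferritin fell and the exporter rose. The WT CIH libraries of this comparison are also those of WT CIH vs 5XFAD CIH. Fth1 fell by 0.64 on the log2 scale (SE 0.11, FDR 0.000629, edgeR), from 964 to 1501 CPM under NX to 740.3 to 843 CPM under CIH without overlap. Ftl1 fell by 0.51 (SE 0.13, FDR 0.00997, edgeR) with overlapping libraries, since WT CIH 1 was at 513 CPM. Ncoa4 rose 1.77-fold (log2FC 0.82 ± 0.16 SE, FDR 0.00183, edgeR), Ireb2 1.54-fold (log2FC 0.62 ± 0.11 SE, FDR 0.000948, edgeR) and Slc40a1 1.36-fold (log2FC 0.45 ± 0.10 SE, FDR 0.00467, edgeR). For Slc40a1, WT CIH 1 at 195 CPM lay inside the NX range of 172 to 205 CPM and the other 4 libraries, at 257 to 282 CPM, lay above it. With all 4 male groups in one fit, which shares one estimate of the spread, 0 members and 0 genes were called. The other members were not called, at log2FC −0.20 for Slc11a1, −0.13 for Steap3, 0.16 for Slc11a2, 0.18 for Aco1 and 0.22 for Tfrc.

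Cell markers moved in the same comparison. Of the microglia markers 3 of 8 were lower in WT CIH males, with sums of 29645 to 33488 CPM under NX and 25683 to 30249.5 CPM under CIH. Lower calls also fell on 5 of 7 neutrophil, 2 of 7 border macrophage and 1 of 5 erythroid markers, and higher calls on 1 of 4 astrocyte and 1 of 6 oligodendrocyte markers. Their part in the change of the members was not tested.

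These changes went along with gene length. In WT NX vs WT CIH males the log2FC of a gene rose with its length (Spearman's rho 0.36 across genes, which are not independent replicates), with a median of −0.40 for genes under 1500 bases and 0.21 for genes over 6000 bases. The members that fell are 866 (Fth1) and 1340 (Ftl1) bases long, and those that rose 9000 (Slc40a1), 9365 (Ncoa4) and 9479 (Ireb2). After the length trend was removed, an alternative added after the data were seen that gives values without a test, the log2FC were −0.23 for Fth1, −0.16 for Ftl1, 0.61 for Ncoa4, 0.41 for Ireb2 and 0.25 for Slc40a1. All 5 kept their sign and were smaller. In WT CIH vs 5XFAD CIH males the trend ran the other way (rho −0.23, medians 0.41 and −0.27), and without it the log2FC were 1.82 for Fth1, 1.52 for Ftl1, −0.85 for Ncoa4, −0.42 for Ireb2, −1.46 for Slc40a1 and 0.92 for Slc11a1. The trend was weak in the other genotype comparisons that called members, with a rho of 0.04 in NX males, −0.06 in CIH females and −0.00034 in NX females. In NX males that value joins 5XFAD NX 1 to 3 with 5XFAD NX 4 and 5, which departed in opposite directions on the length measure (−0.44 to −0.31 against 0.37 and 0.41) and in Fth1 (3993 to 4211 against 1791 and 1856 CPM). What part length had in these results was not tested further.

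**Figure D5:**
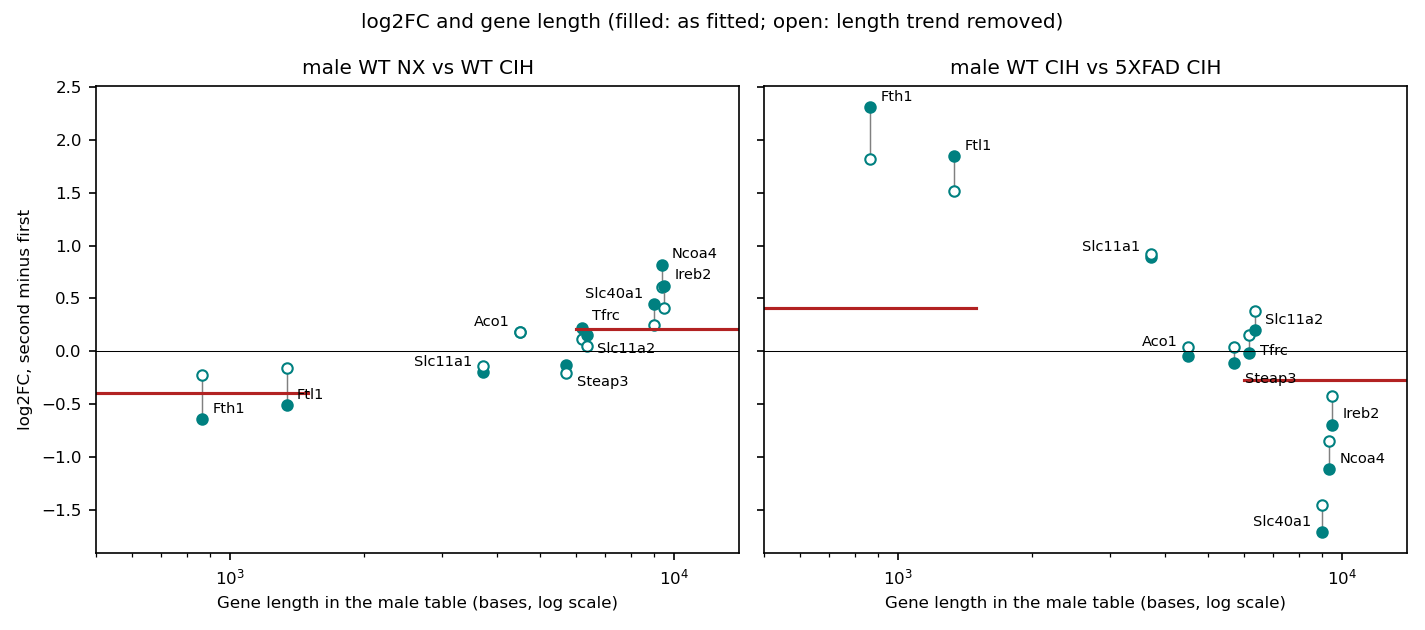
log2FC of the 10 members against gene length in male WT NX vs WT CIH and male WT CIH vs 5XFAD CIH, filled as fitted and open with the length trend removed, red lines being the medians of all genes under 1500 and over 6000 bases. In the first comparison Fth1 moves from −0.64 to −0.23 and Ncoa4 from 0.82 to 0.61, and in the second Fth1 moves from 2.31 to 1.82.

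In the other treatment comparisons no member was called, and nor was any other gene. In WT NX vs WT CIH females 0% of 14583 genes were called higher, lower or as DEGs by edgeR, with 565 at an unadjusted p under 0.05 and 1 called by DESeq2. In 5XFAD NX vs 5XFAD CIH females 0% of 14578 genes were called (470 at p under 0.05). In 5XFAD NX vs 5XFAD CIH males 0% of 14334 genes were called (473 at p under 0.05, and 1 called by DESeq2). The log2FC of Fth1 in WT females was −0.43 (FDR 0.96, edgeR) and −0.05 without WT NX 1. The other members of WT females lay between −0.56 (Steap3) and 0.077 (Slc40a1). Without WT NX 1, Steap3 was at −0.15, and Ftl1 went from −0.37 to 0.014. That of Slc40a1 in 5XFAD females was −0.48, and −0.11 without 5XFAD NX 4, while the other members lay between −0.12 (Ncoa4) and 0.31 (Steap3). In 5XFAD males the 10 members lay between −0.34 (Tfrc) and 0.28 (Fth1). Without male 5XFAD NX 4 these were −0.20 and 0.13, and Ncoa4 turned from −0.16 to 0.12.

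Whether the genotype difference itself depended on CIH was tested as an interaction over the 4 groups of a sex. In females 0% of 15582 genes were called (589 at p under 0.05), and in males 0% of 15813 (3857 at p under 0.05), although DESeq2 called 1017 genes in males. For the members the male interaction was 0.92 for Fth1 (FDR 0.122), 0.76 for Ftl1 (FDR 0.173), −0.58 for Slc40a1 (FDR 0.117), −0.80 for Ireb2 (FDR 0.118), −0.99 for Ncoa4 (FDR 0.201) and −0.35 for Slc11a2 (FDR 0.136), all by edgeR. The signs are those of a wider 5XFAD difference under CIH for Fth1, Ftl1, Slc40a1 and Ncoa4 and a narrower one for Slc11a2. For Ireb2 the NX and CIH differences given above had opposite signs, and for Ncoa4 the NX value averages opposite departures. None of these interactions passed the test by edgeR, while DESeq2 called 3 members. Tfrc (−0.56), Aco1 (−0.10), Steap3 (0.029) and Slc11a1 (0.21) did not pass it either. The female interaction lay between −0.57 (Slc40a1) and 0.85 (Steap3) over the 10 members. Both ends shrank with 1 library left out, to −0.19 for Slc40a1 without 5XFAD NX 4 and to 0.45 for Steap3 without WT NX 1. Across genes the male interaction also followed length (rho −0.35, medians 0.46 for short and −0.33 for long genes). With the trend removed the values were 0.40 for Fth1, 0.34 for Ftl1, −0.26 for Slc40a1, −0.46 for Ireb2, −0.66 for Ncoa4 and −0.16 for Slc11a2. Differences between the sexes were not tested, since the tables were made separately.

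Beyond the 10 members, a list of 48 other genes of iron and heme metabolism moved in both directions. In NX females 2 of the 35 tested were higher and 5 lower in 5XFAD, in CIH females 10 and 10 of 37, in NX males 2 and 4 of 37, and in CIH males 12 and 9 of 35. Of all genes, 7.26% were called higher and 6.61% lower in NX females, 26.2% and 25.7% in CIH females, 10.4% and 7.37% in NX males, and 25.3% and 23.7% in CIH males. Against these shares, the CIH female counts and the lower count of CIH males are near those of all genes. Mitochondrial iron and iron-sulfur genes in CIH males counted 4 higher and 2 lower of 9, and heme handling 4 higher and 3 lower of 9, to be read against the same shares. Bola2, an iron-sulfur cluster chaperone, rose in CIH females (log2FC 1.18, FDR 8.38e-05, edgeR) and CIH males (log2FC 1.90, FDR 2.17e-06, edgeR). In CIH males Hmox1, the heme oxygenase that frees iron from heme, rose by a log2FC of 1.28 (FDR 2.28e-06, edgeR). Trf, the transferrin that oligodendrocytes make in brain, rose by 1.27 (FDR 1.25e-05, edgeR) and Glrx5, which passes on iron-sulfur clusters in mitochondria, by 1.14 (FDR 0.000485, edgeR). Beside Trf, 2 of 6 oligodendrocyte markers were higher in 5XFAD in CIH males, with summed levels of 194 to 275 CPM in WT and 241 to 446 CPM in 5XFAD, and their part in it was not tested.

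Slc25a37, the mitochondrial iron importer mitoferrin 1, fell by 1.56 on the log2 scale in CIH males (FDR 3.08e-07, edgeR). It was also lower in CIH females (log2FC −1.15, FDR 1.10e-07, edgeR), NX females (log2FC −0.92, FDR 0.0429, edgeR) and NX males (log2FC −0.88, FDR 0.0121, edgeR), while it rose in WT males under CIH (log2FC 0.54, FDR 0.000492, edgeR). Ltf, lactoferrin, was lower in CIH males (log2FC −1.04, FDR 0.0461, edgeR). In that comparison 2 of 7 neutrophil markers were lower and 0 higher, with summed levels of 97.2 to 282 CPM in WT and 50.5 to 188 CPM in 5XFAD, and their part in the Ltf value was not tested. Cd163, the receptor for haemoglobin bound to haptoglobin and one of the border macrophage markers above, was lower in 5XFAD in NX females (log2FC −1.18, FDR 0.0179, edgeR), CIH females (log2FC −1.34, FDR 0.000196, edgeR) and NX males (log2FC −1.09, FDR 0.0089, edgeR). The metalloreductases Steap2 in NX females (log2FC −2.46, FDR 0.0226, edgeR) and Steap1 in CIH females (log2FC −1.42, FDR 0.0393, edgeR) were lower too. In WT NX vs WT CIH males 4 of the 37 other iron genes tested were higher and 15 lower, beside 13.6% and 15% of all genes, and the fit of all 4 groups called 0 genes there. The lower ones were led by the iron-sequestering neutrophil proteins Lcn2 (log2FC −1.87, FDR 0.00673, edgeR) and Ltf (log2FC −1.43, FDR 0.0251, edgeR). In that comparison 5 of 7 neutrophil markers were lower, and their summed level was 205 to 1114 CPM under NX and 97.2 to 282 CPM under CIH, and the part of this in the Lcn2 and Ltf values was not tested.

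Markers of other cells that the bead isolation could hold were low beside the microglia markers. Summed astrocyte markers were at 5.35 to 35 CPM in female WT CIH against 117 to 532 CPM in 5XFAD CIH, and at 3.42 to 38.6 CPM in male WT NX against 262 to 916 CPM in 5XFAD NX. They were at 11.2 to 73.7 CPM in male WT CIH against 123 to 531 CPM in 5XFAD CIH. In NX females WT libraries were at 19.7 to 53.3 CPM, 5XFAD NX 4 at 19.6 CPM and the other 5XFAD libraries at 125 to 252 CPM. Of the 5 astrocyte markers, 1 was called higher in NX females, 3 in CIH females, 3 in NX males and 1 in CIH males, where 1 was also called lower. Summed endothelial markers were at 47.6 to 137 CPM in female WT CIH and 154 to 233 CPM in 5XFAD CIH, without overlap. They were at 52.9 to 202 CPM in male WT NX and 176 to 234 CPM in 5XFAD NX. In each genotype comparison 1 of 7 markers was called higher and 1 lower. In CIH females the median log2FC of the 7 was −0.51, the other way from their sum. It was −1.17 in NX females, 0.26 in NX males and −0.40 in CIH males. Of the oligodendrocyte markers, 3 of 6 were higher in 5XFAD in NX males, with sums of 184 to 331 CPM in WT and 275 to 592 CPM in 5XFAD. In females 0 of 5 were higher and 1 lower under NX, and 1 higher and 1 lower under CIH. Erythroid markers reached at most 235 CPM in any library, with 2 of 5 lower in 5XFAD in NX males. Neutrophil markers reached 1163 CPM, with 3 of 6 lower in CIH females, and neuron markers 14 CPM. The part of all these markers in the levels of the members was not tested.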

How the data were processed

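Bulk RNA-seq of CD11b+ cells from 39 mouse libraries was analysed. The authors deposited raw counts per gene, not normalized, and FPKM values, which divide the counts by gene length and library total. HISAT2 and GRCm38/mm10 are named in the submitters' processing notes, while annotation and counting tool are not given in the sources used here. Groups came from the labels. The members and lists were chosen with earlier results of these data known.

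Counts were tested pair by pair in R 4.3.3 with edgeR 4.0.16 (TMM, quasi-likelihood F test) over genes with CPM > 1 in at least 3 libraries, the filter the study used, with Benjamini-Hochberg adjustment. SE is the absolute log2FC over the square root of F. FPKM served to compare levels between genes. DESeq2 1.42.0, limma 3.58.1 on log2(FPKM + 1) and log2(FPKM + 0.1), other filters and scaling, a replicate block and leave-one-out fits were alternatives. Intervals and SE cover the spread between libraries. All 10 members were to be named in every comparison, where none was called by their range, plus, of the other iron genes, up to 4 higher and 2 lower DEGs per genotype comparison and up to 2 called per treatment comparison, and any gene's values elsewhere are given beside these. On simulated data a log2FC of 2 was recovered for 152 to 190 of 200 genes in the 6 comparisons of 2 groups simulated and a log2FC of 1 for 90 to 151, in the male interaction for 128 and 63 of 200. Where changes were put in, 2 to 12 unchanged genes were also called, and 0 genes were called where no change was put in. The simulation drew genes independently, without outlying libraries or a trend with gene length, so it cannot show how many calls those give. Chi-square per degree of freedom between libraries of a group was at least 4.86 in females and 7.67 in males, so no library was counted as a duplicate. IRE matches were searched in GENCODE M21 transcripts.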

Additional observations from a re-analysis of the deposited data

Results flagged for a closer look

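Of 80 sets of libraries (10 members in 8 groups), 8 held a library far from the others of its group by Dixon's test, where chance gives about 1 in 20. In female WT NX, library 1 was high in Fth1 (1604 CPM against 653 to 814 CPM) and in Steap3 (6.91 CPM against 2.92 to 3.22 CPM), and library 3 was low in Ireb2 (111 CPM against 122 CPM in each of the others). In female 5XFAD NX, library 4 was high in Slc40a1 (214 CPM against 73.2 to 113 CPM). In female 5XFAD CIH, library 4 was high in Tfrc (31.9 CPM against 19.3 to 20.2 CPM). In male WT CIH, library 1 was high in Ftl1 (513 CPM against 392 to 414 CPM) and low in Slc40a1 (195 CPM against 257 to 282 CPM). In male 5XFAD CIH, library 4 was high in Steap3 (4.58 CPM against 2.85 to 3.15 CPM).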

How the results depend on the processing

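Of 2160 values of single members under an alternative, 36 became called, 37 lost the call and 3 reversed a called direction. A further 92, called in neither fit, changed sign, for 29 results of at most 0.48 in size. The 3 called ones are Aco1 in WT CIH vs 5XFAD CIH females, 0.14 by TMM, −0.048 by library size alone, −0.047 by limma on FPKM + 1 and −0.051 on FPKM + 0.1. In WT NX vs 5XFAD NX females, 2 members were called, but 0 by the DEG limit, 4 by edgeR's likelihood ratio test, 5 by DESeq2, 6 with all 4 groups in one fit, 4 by limma with either pseudocount, 0 to 6 with 1 library left out, and 6 without WT NX 1 and 5XFAD NX 4. The genes called there numbered 2013, and 3509 by DESeq2, 1311 by library size alone, 4648 with 4 groups, 43 to 6229 with 1 library left out (6229 without 5XFAD NX 4). The DEG limit left 3 of 9 members in CIH females, 3 of 5 in NX males and 0 of 5 in WT NX vs WT CIH males, where the fit of all 4 groups also called 0 members and 0 of 4279 genes. The male interaction called 0 members, but 3 by DESeq2, 4 without a filter and 0 to 2 with 1 library left out (2 without 5XFAD NX 1). The genes called there numbered 248 by the likelihood ratio test, 1017 by DESeq2, 1754 without a filter and 953 without 5XFAD NX 1. For the other comparisons with 0 calls, WT females had 1 by DESeq2 and 22 without a filter, and 5XFAD males 1 by the likelihood ratio test and 1 by DESeq2. The causes were not tested.

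Library size alone moved the median of all genes by −0.15, −0.19, −0.19, −0.37 and 0.10 (NX females, CIH females, NX males, CIH males by genotype, and WT males by treatment). The share of called genes that were higher became 29.3% rather than 50.5% in CIH females, 33.1% rather than 58.6% in NX males, 24.5% rather than 51.6% in CIH males and 64.5% rather than 47.6% in WT males by treatment. By limma on FPKM it was 31.4% and 31.9% rather than 52.4% in NX females and 28.5% in CIH females.

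The replicate numbers share only a number: 12 of 27 same-number pairs in females and 9 of 30 in males correlated over 0.1, and 4 of 19 and 2 of 20 libraries correlated best with their own number. With the number as a block, 0 members and 7 genes were called in WT NX vs 5XFAD NX females, where Slc11a1 was at 0.59 and Slc11a2 at 0.45, and 1310 rather than 2638 genes in NX males, where Ftl1 lost its call (1.00, FDR 0.127). Aco1 in CIH females lost its call as well. Counts were fewest for Steap3, at 1.82 to 7.25 CPM.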
